A study of Homo sapiens with 4 samples.

Results

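The miR-200 family and miR-203a are miRNAs of epithelial cells, and 6 of their mature forms were followed through miRNA sequencing of FN1 3′-UTR pull-downs from AGS and HGC27 cells. The members were taken by name, hsa-miR-200a-3p, hsa-miR-200b-3p, hsa-miR-200c-3p, hsa-miR-141-3p, hsa-miR-429 and hsa-miR-203a-3p, from 843 distinct mature miRNA entries, of which 570 were known and 273 predicted. All 6 were listed in at least 1 library and 5 in all 4 libraries. AGS and HGC27 are human gastric cancer cell lines, and in both the FN1 3′-UTR had been stably overexpressed by lentivirus, so that no library came from cells without it. Lysates of each line were incubated with beads carrying either a positive or a negative in vitro transcribed RNA probe to the FN1 3′-UTR, and the small RNA that was retained was sequenced. There were 4 libraries, AGS negative, AGS positive, HGC27 negative and HGC27 positive, with 1 library in each group. The authors' methods name an antisense transcript, labelled with biotin, on the beads. They do not say which strand the positive and the negative probe each carried.

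A miRNA is processed from a hairpin precursor whose 3p and 5p arms can both give a mature strand, and bases 2 to 8 of that strand, the seed, lead it to complementary sites in mRNA. The miR-200 family lies in 2 clusters, each transcribed as 1 precursor, and is known for repressing ZEB1 and ZEB2, the transcription factors that drive epithelial-mesenchymal transition and that in turn repress both clusters. miR-203a is abundant in stratified epithelium, where it restrains the stem cell factor p63, and it is also silenced by ZEB1. Levels of these miRNAs are therefore widely used to tell epithelial from mesenchymal cells.

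The family falls into 2 seed groups that differ at 1 base of the seed, and the mature sequences are shown with the seed in capitals so that the groups can be compared with the values that follow. All 6 deposited sequences were the same as RefSeq's, on GRCh38.p14.
miR-200b-3p: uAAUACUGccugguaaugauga
miR-200c-3p: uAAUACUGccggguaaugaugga
miR-429: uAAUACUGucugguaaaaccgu
miR-200a-3p: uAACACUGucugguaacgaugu
miR-141-3p: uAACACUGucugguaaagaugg
miR-203a-3p: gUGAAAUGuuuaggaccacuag
Counted from 1 at the 5′ end, miR-200b-3p and miR-200a-3p differed by U4C within the seed and by C9U, U17C and A22U outside it. miR-200c-3p differed from miR-200b-3p by U11G and A22G and had 1 further base at its 3′ end. miR-429 shared the whole seed of miR-200b-3p and differed at 6 of 22 positions, and miR-141-3p differed from miR-200a-3p by C17A and U22G. miR-203a-3p has a seed of its own. No other entry of the table had the seed of a member.

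The seed groups cut across the clusters. MIR200B, MIR200A and MIR429 lie within 1984 bases on the plus strand of chromosome 1, in that order, at 1167104 to 1167198, 1167863 to 1167952 and 1169005 to 1169087, where the GENCODE annotation holds no other gene over them. MIR200C, at 6963699 to 6963766, and MIR141, at 6964097 to 6964191, lie within 493 bases on the plus strand of chromosome 12, in an intron of the noncoding host gene MIR200CHG. MIR203A lies on the plus strand of chromosome 14 at 104117405 to 104117514 and overlaps MIR203B, which lies on the minus strand at 104117418 to 104117503. Each cluster thus holds at least 1 member of each seed group.

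The table also held a predicted entry on chromosome 14 that shares a run of over 16 bases with miR-203a-3p. It is miR-203a-3p without its first base, at 104117470 to 104117490 in place of 104117469 to 104117490, and its seed is therefore moved by 1 position.
Shorter miR-203a-3p entry: uGAAAUGUuuaggaccacuag
Its counts were kept apart from those of miR-203a-3p, as they were deposited. It is described beside the members and was not added to them.

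Matches to the seeds were sought in the FN1 3′-UTR, because both probes were made to that sequence. The window was the 3′-UTR of transcript ENST00000336916.8, 1101 bases on the minus strand of chromosome 2, at 215360454 to 215361554 of GRCh38. CAGTATT, the complement of the seed of miR-200b-3p, miR-200c-3p and miR-429, occurred 2 times in the sense strand, at bases 245 to 251 and 531 to 537 of the 3′-UTR, and 1 time in the antisense strand, opposite bases 402 to 408. The 3 matches are printed 5′ to 3′ with 10 bases on each side, the match in capitals.
First sense match: caataccgctCAGTATTttaaatgaag
Second sense match: caatttttccCAGTATTtttatacgga
Antisense match: cttgttcctaCAGTATTgcgggccaga
CAGTGTT, the complement of the seed of miR-200a-3p and miR-141-3p, was found in neither strand. CATTTCA, the complement of the seed of miR-203a-3p, occurred 0 times in the sense strand and 1 time in the antisense strand, opposite bases 327 to 333, and ACATTTC, that of the shorter entry, in neither. Among all 570 known miRNAs, 42 (7.37%) had at least 1 such match in the sense strand and 44 (7.72%) in the antisense strand. A match is a run of letters and no measure of binding.

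The values are TPA, tags per 1000000 aligned tags, which are the authors' normalised read counts. The tables' counts summed to between 1296853 and 2955078 per library. Intervals given here are exact 95% intervals and cover counting error only, since there was 1 library in each group. The lowest count listed anywhere was 2, and a blank was taken as a count of 0. A single miRNA took much of every library, with miR-372-3p at 80.8% of the counts of AGS negative and 37.5% of AGS positive, and miR-148a-3p at 50.6% of HGC27 negative and 35.0% of HGC27 positive. The libraries' makeup therefore differed between both the lines and the probes, and the part of this in the differences that follow was not tested beyond the other scalings given.

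The miR-200 family and miR-203a-3p were highest in the AGS negative library without exception. With the shorter miR-203a-3p entry kept apart, miR-200c-3p was the most abundant member in every library. It had 43828 counts in AGS negative, 2699 in AGS positive, 1793 in HGC27 negative and 916 in HGC27 positive. These came to 6105, 632, 617 and 331 TPA. AGS negative stood about an order of magnitude above the rest, and the intervals of AGS positive (608 to 656) and HGC27 negative (589 to 646) overlapped.

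miR-200b-3p, which differs from miR-200c-3p at 2 of the 22 positions compared, was spread far more widely. It had 12532, 142, 67 and 42 counts in AGS negative, AGS positive, HGC27 negative and HGC27 positive, or 1746, 33, 23 and 15 TPA. The last 3 libraries lay close together, and neighbouring ones overlapped in their intervals. miR-429, the third of this seed group, had 1264, 191, 6 and 13 counts in the same order, or 176, 45, 2 and 5 TPA. Both AGS libraries were above both HGC27 libraries, whose intervals overlapped.

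miR-200a-3p, the main form of the other seed group, had 1916, 171, 29 and 17 counts, or 267, 40, 10 and 6 TPA, and again both AGS libraries were above both HGC27 libraries. miR-141-3p, its partner in the chromosome 12 cluster, had 12 counts in AGS negative, 2 TPA, and was not listed in the other 3 libraries. A count of 0 there allows up to 0.702 TPA in AGS positive, 1.03 in HGC27 negative and 1.09 in HGC27 positive, set at 3 counts. miR-141-3p was thus barely detected, although miR-200c-3p from the same precursor was the most abundant member.

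miR-203a-3p had 14347, 302, 373 and 39 counts, or 1998, 71, 128 and 14 TPA. It was the only member listed in all 4 libraries whose AGS positive level was below its HGC27 negative level. The shorter miR-203a-3p entry was higher than miR-203a-3p in every library, with 33453, 346, 680 and 81 counts, or 4660, 81, 234 and 29 TPA, and its libraries fell in the same order. In AGS negative the members' TPA ran from miR-200c-3p through miR-203a-3p, miR-200b-3p, miR-200a-3p and miR-429 to miR-141-3p, with no overlap between neighbours' intervals. This order holds only with the shorter entry kept apart. Added together, the 14347 and 33453 counts of both miR-203a-3p forms exceed the 43828 of miR-200c-3p in AGS negative. The mature forms are 21 to 23 bases long, but whether TPA compares the amounts of different sequences was not tested.

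**Figure D1:**
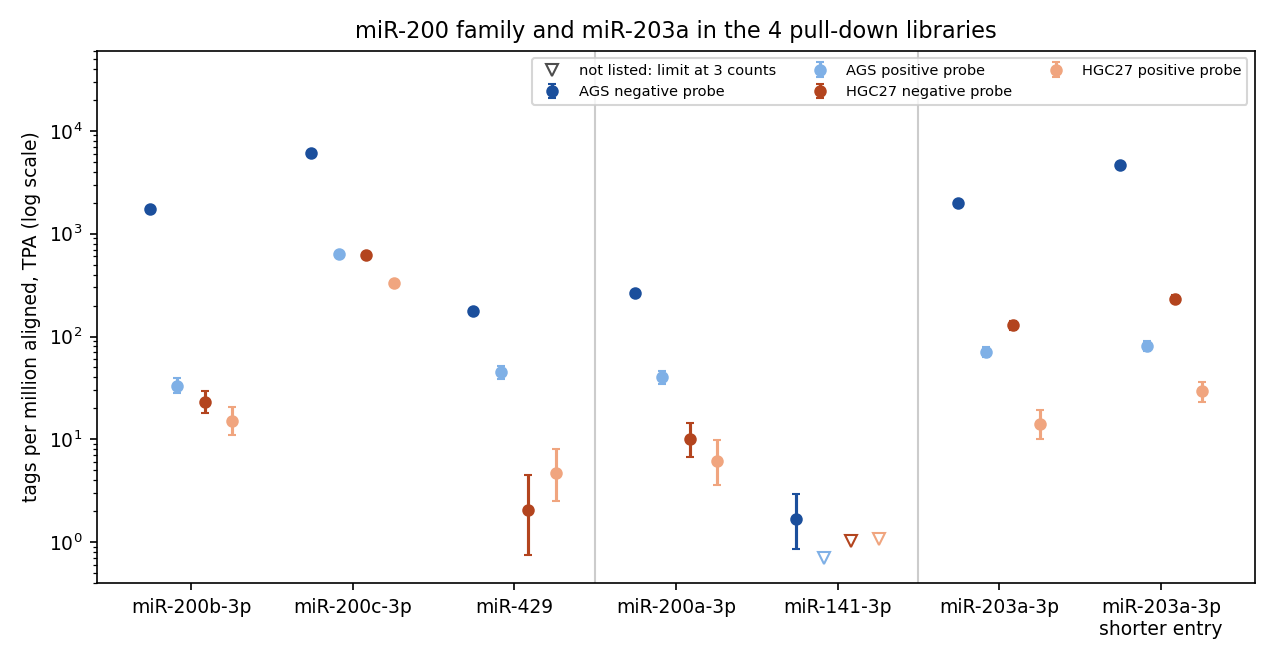
TPA (log scale) of the 6 members and the shorter miR-203a-3p entry in the 4 libraries, with exact 95% counting intervals; vertical lines part the 2 seed groups and miR-203a, and open triangles mark the level of 3 counts where a miRNA was not listed. The AGS negative library is the highest for every miRNA shown, from 1.67 for miR-141-3p to 6105 for miR-200c-3p.

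The 5 family members together made up 2.02% of the counts of AGS negative, 0.210% of AGS positive, 0.130% of HGC27 negative and 0.0762% of HGC27 positive. miR-203a-3p made up 0.486%, 0.0198%, 0.0257% and 0.00301%. Both sums were therefore minor beside the leading miRNAs of these libraries.

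The first comparison set the cell lines against each other under the same probe, asking how far the epithelial miRNAs set AGS apart from HGC27. A miRNA was called where (TPA + 1) differed by a ratio of at least 2. Under the negative probe all 6 members were higher in AGS, whereas 6.02% of the 615 miRNAs listed were called higher in AGS and 86.0% lower. The median log2 ratio was 4.28 for the members and −1.58 for all miRNAs listed. With the counts scaled by TMM factors instead, all 6 members were again higher, while 21.8% of the miRNAs were higher and 36.3% lower. The median of the miRNAs that reached 10 counts was −2.81 in TPA and −0.33 with TMM.

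From the counts, miR-429 was 85.3-fold higher in AGS (interval 39.1 to 233) and miR-200b-3p 75.7-fold (59.6 to 97.8). miR-200a-3p was 26.7-fold higher (18.6 to 40.1), miR-203a-3p 15.6-fold (14.1 to 17.3) and miR-200c-3p 9.90-fold (9.44 to 10.4). The 3 members of the chromosome 1 cluster had the highest folds, and their intervals lay above those of miR-203a-3p and miR-200c-3p. miR-141-3p, with 12 counts against none, was at least 1.62-fold higher when the floor of 3 counts was put in place of 0, with an exact 95% limit of 1.13-fold. Across 6 ways of scaling and of setting the pseudocount, these sizes moved far more than their intervals, though every one stayed higher in AGS. The log2 ratio ran from 5.73 to 9.63 for miR-200b-3p, from 3.95 to 9.20 for miR-429 and from 3.29 to 6.77 for miR-200c-3p. Of 615 miRNAs ranked by the ratio, miR-200b-3p was in place 611, miR-429 in 610, miR-200a-3p in 607, miR-203a-3p in 604 and miR-200c-3p in 603.

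Under the positive probe the lines lay closer together, and 4 of the 5 members listed were called higher in AGS, beside 12.9% of 684 miRNAs higher and 75.3% lower. With TMM factors 5 of 5 were higher, beside 24.4% higher and 44.2% lower. miR-429 was 9.50-fold higher (5.42 to 18.2), miR-200a-3p 6.50-fold (3.94 to 11.4) and miR-203a-3p 5.01-fold (3.58 to 7.18). miR-200b-3p was 2.19-fold higher (1.54 to 3.16) and miR-200c-3p 1.91-fold (1.77 to 2.06), a ratio short of 2. No member was lower in AGS under either probe. In such bulk libraries fewer cells with a miRNA and less of it per cell cannot be told apart. Every library held RNA retained on probe-coated beads, and none held unselected RNA. A difference between the lines in the cells' level and one in retention therefore cannot be told apart either.

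With both probes in 1 model, edgeR's quasi-likelihood test with probe as a covariate called 81 of 271 miRNAs for the line, 7.75% of them higher in AGS and 22.1% lower. All 5 members that passed the filter on low counts were called higher in AGS, and miR-141-3p did not pass it. Their log2 fold changes under edgeR were 7.61 ± 1.57 (SE) for miR-429, with an adjusted p of 6.28e-05, and 6.61 ± 1.50 for miR-200a-3p, with an adjusted p of 0.000299. They were 6.04 ± 1.69 for miR-203a-3p (edgeR adjusted p = 0.00246), 6.58 ± 1.95 for miR-200b-3p (edgeR adjusted p = 0.00448) and 5.00 ± 1.91 for miR-200c-3p (edgeR adjusted p = 0.0325). The fit had 1 residual degree of freedom, which is the departure of the 4 libraries from additive line and probe terms. edgeR set its prior degrees of freedom to infinity, so that the p-values rest on a spread pooled over all miRNAs. They do not rest on the spread of each member. Each edgeR SE is the size of the log2 fold change over the square root of the test's F statistic. It is thus no measure of spread apart from the p-value. Nothing in the labels gives separate cultures, so no variation between replicates enters these p-values.

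These log2 fold changes depended on the scaling. The median over all 271 miRNAs was −0.63 with TMM factors and −3.17 with library totals alone. Relative to that median miR-200c-3p was 5.63 higher on the log2 scale with TMM factors and 5.63 higher with library totals. A change of scaling moves all miRNAs nearly alike, so this distance was fixed in advance and is no check on the call. Across the 9 alternatives the call of miR-200c-3p was kept in 3, with edgeR or DESeq2 adjusted p from 2.67e-07 to 0.326, and its log2 fold change stayed above 0, from 2.45 to 6.16. The calls of miR-200a-3p and miR-203a-3p were each kept in 8 of 9, that of miR-200b-3p in 7 of 9 and that of miR-429 in 7 of the 8 that tested it.

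**Figure D2:**
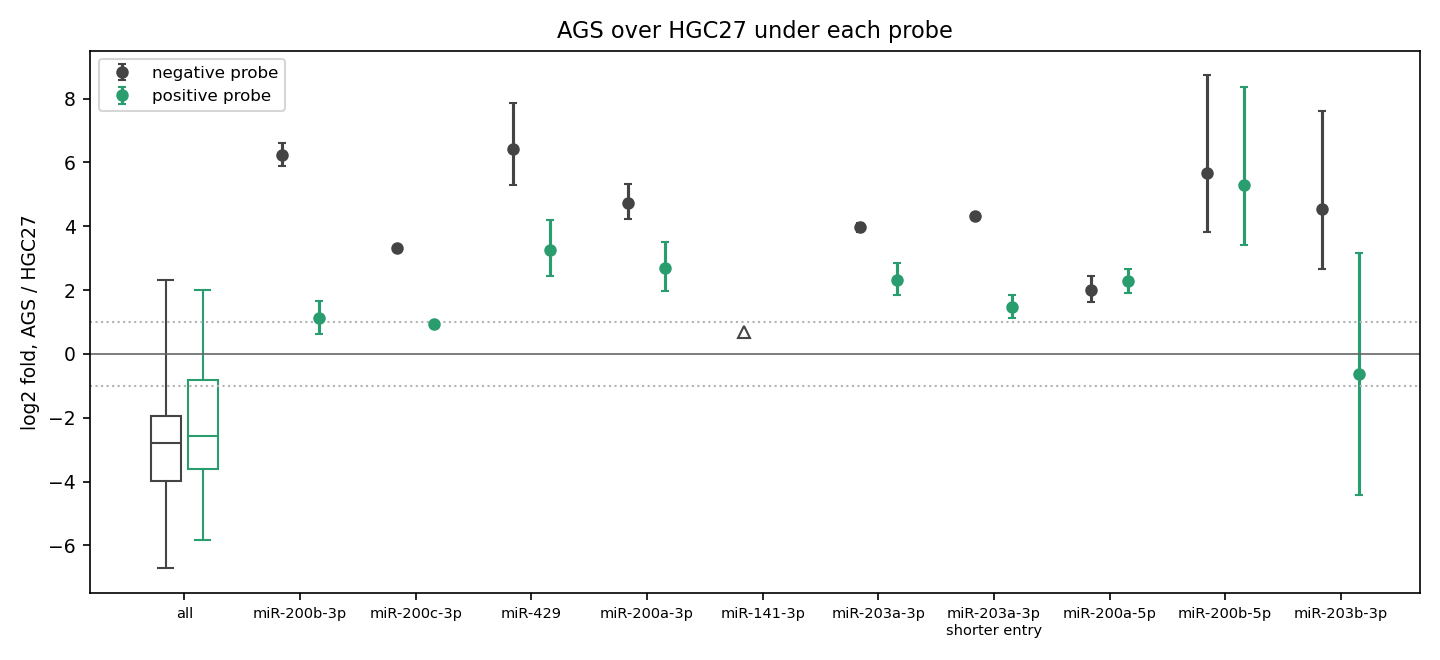
Log2 fold of AGS over HGC27 under the negative and the positive probe, from the counts, for the members, the shorter miR-203a-3p entry and the other arms, with exact 95% counting intervals. The open triangle is a lower bound at 3 counts, dotted lines mark a ratio of 2, and the boxes labelled all show the quartiles of the log2 ratios of miRNAs that reached 10 counts in either library compared (whiskers at percentiles 5 and 95), whose medians were −2.81 and −2.58, while every member is above 0.

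The second comparison set the positive against the negative probe within each line, which asks which miRNAs were retained by 1 probe over the other. In AGS all 6 members were lower with the positive probe. Of the 459 miRNAs listed there 22.7% were called lower and 39.4% higher, against 40.3% and 38.3% with TMM factors, and of the 230 with at least 10 counts 31.3% were lower. The median log2 ratio was −2.99 for the members, against 0 for all miRNAs listed and 0.42 for those with at least 10 counts.

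miR-200b-3p, at 12532 counts with the negative and 142 with the positive probe, was 52.5-fold lower (interval 44.5 to 62.4). miR-203a-3p was 28.3-fold lower (25.2 to 31.8), miR-200c-3p 9.66-fold (9.30 to 10.1), miR-200a-3p 6.67-fold (5.70 to 7.84) and miR-429 3.94-fold (3.38 to 4.61). miR-141-3p, not listed with the positive probe, was at least 2.38-fold lower against the floor of 3 counts, with an exact 95% limit of 1.65-fold. The folds thus spanned more than an order of magnitude within the family, and miR-200b-3p and miR-429, which share both seed and cluster, stood at its 2 ends among the members with over 12 counts.

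The shorter miR-203a-3p entry was 57.5-fold lower (51.8 to 64.2), the lowest ratio of all 459 miRNAs. miR-200b-3p was in place 2 from the lowest, miR-203a-3p in 6, miR-200c-3p in 15 and miR-200a-3p in 22. miR-429 was in place 42 and miR-141-3p in 50.

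The size of these falls moved with the scaling, though not their direction. Over 6 ways of scaling and of setting the pseudocount, the log2 ratio of miR-200b-3p lay between −7.59 and −5.35, that of miR-203a-3p between −6.70 and −4.61 and that of miR-429 between −3.86 and −1.76. The median of the miRNAs with at least 10 counts moved over the same settings from −1.33, with the leading miRNAs left out of the totals, to 0.69, with all of them in. With the leading miRNAs left out, 224 of 459 miRNAs were called lower.

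In HGC27 the same contrast gave 1 member lower, 1 higher and 3 between, of 5 listed, beside 34.0% lower and 37.5% higher among 755 miRNAs. miR-203a-3p fell from 373 to 39 counts, 9.09-fold (6.53 to 13.0), and was in place 18 from the lowest. The shorter entry fell from 680 to 81 counts, 7.98-fold (6.33 to 10.2). miR-203a was therefore lower with the positive probe in both lines and in both of its forms.

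The miR-200 family differed less between the probes in HGC27. miR-200c-3p, at 1793 and 916 counts, was 1.86-fold lower (1.72 to 2.02), miR-200b-3p 1.52-fold (1.02 to 2.29) and miR-200a-3p 1.62-fold, with an interval from 0.862 to 3.15 that includes no difference. miR-429 was called higher, but on 6 and 13 counts its fold of 2.28 had an interval of 0.808 to 7.31. At these counts no difference of miR-429 or miR-200a-3p between the probes was detectable in HGC27 within these intervals.

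**Figure D3:**
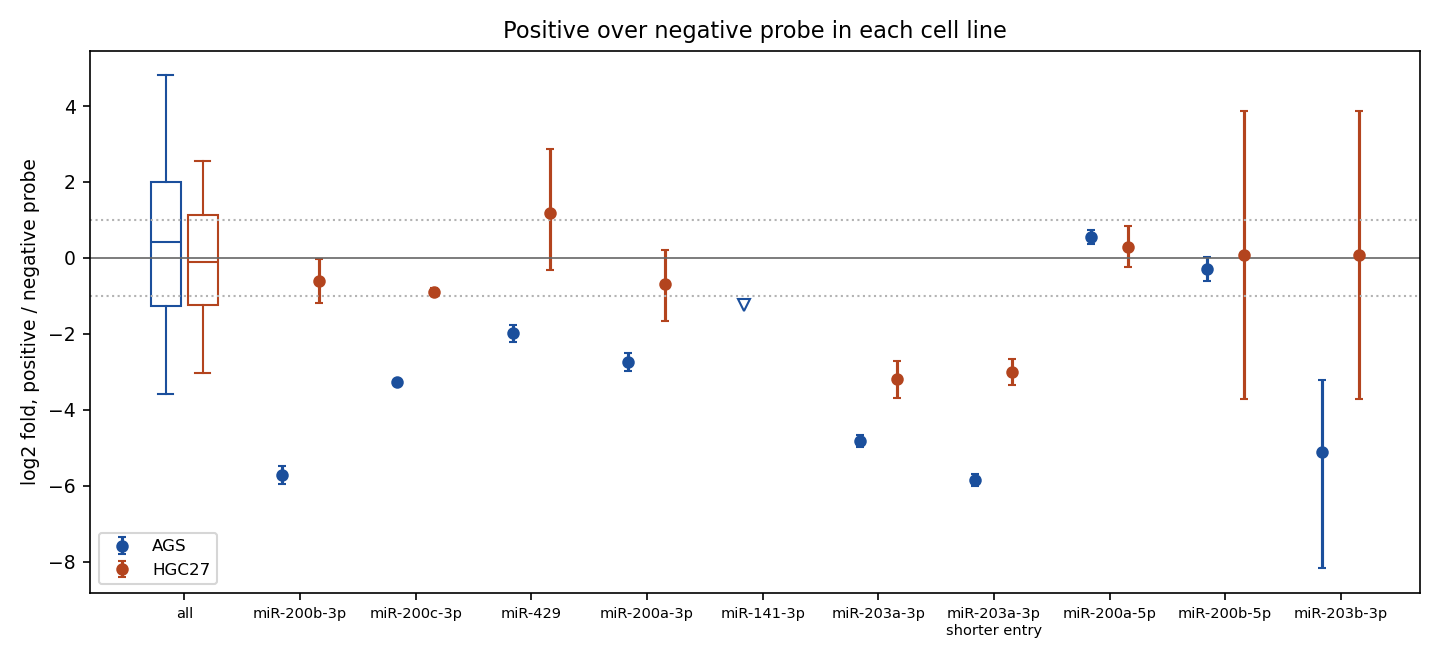
Log2 fold of the positive over the negative probe in AGS and in HGC27, from the counts, for the members, the shorter miR-203a-3p entry and the other arms, with exact 95% counting intervals. The open triangle is an upper bound at 3 counts, dotted lines mark a ratio of 2, and the boxes labelled all show the quartiles of the log2 ratios of miRNAs that reached 10 counts in either library compared (whiskers at percentiles 5 and 95); the AGS points of the members lie below 0, whereas in HGC27 the miR-203a forms alone lie below the lower dotted line.

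The ratio of the positive to the negative probe was lower in AGS than in HGC27 for each of the 5 members that both lines listed. The HGC27 ratio over the AGS ratio was 34.6 for miR-200b-3p (22.1 to 53.6), 8.98 for miR-429 (3.13 to 29.1), 5.19 for miR-200c-3p (4.75 to 5.68), 4.11 for miR-200a-3p (2.07 to 7.91) and 3.11 for miR-203a-3p (2.13 to 4.43). With 1 library in each group this difference between the lines has no replicate check. The intervals cover counting error only. How many of all miRNAs had a lower ratio in AGS than in HGC27 was not counted. These values are in TPA alone, and they move with the scaling. For miRNAs with at least 10 counts the median log2 ratio of the probes was 0.42 in AGS and −0.12 in HGC27 in TPA. With the leading miRNAs left out of the totals it was −1.33 and −0.40.

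With both lines in 1 model, edgeR's quasi-likelihood test called 19 of 271 miRNAs for the probe, 4.06% higher and 2.95% lower with the positive probe, and 0 of the 5 members tested. Without adjustment 55 miRNAs, miR-203a-3p among them, had a p under 0.05. The edgeR log2 fold change of miR-203a-3p was −4.43 ± 1.59 (SE), with an adjusted p of 0.055. Under DESeq2's Wald test 2 members, miR-203a-3p and miR-200b-3p, were called lower. For the other members edgeR gave −3.61 ± 1.97 for miR-200b-3p (adjusted p = 0.289), −2.49 ± 1.81 for miR-200c-3p (adjusted p = 0.419), −2.20 ± 1.33 for miR-200a-3p (adjusted p = 0.335) and −1.05 ± 1.44 for miR-429 (adjusted p = 0.731). All 5 values were below 0, and the fit assumes the same probe effect in both lines.

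Comparisons between members within a library do not depend on how the libraries are scaled. The share of the family's counts held by miR-200c-3p was 73.6% in AGS negative (interval 73.2 to 74.0), 84.3% in AGS positive (83.0 to 85.5), 94.6% in HGC27 negative (93.5 to 95.6) and 92.7% in HGC27 positive (90.9 to 94.3). miR-200b-3p held 21.0%, 4.43%, 3.54% and 4.25% in the same order. AGS negative was thus set apart by a share of miR-200b-3p that the other 3 libraries did not approach.

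**Figure D4:**
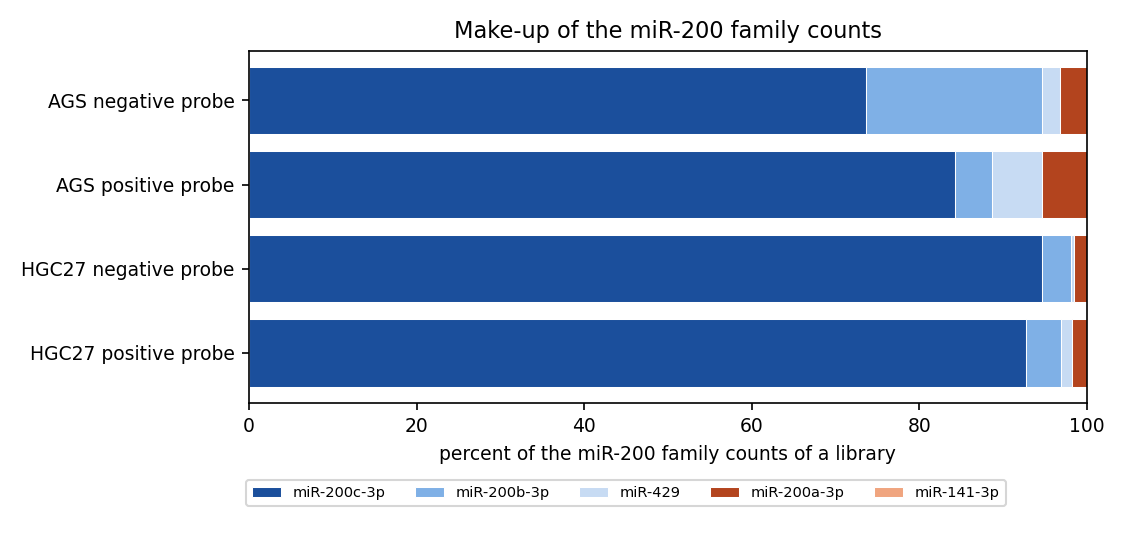
Each bar divides the miR-200 family counts of 1 library among its members, in percent. miR-200b-3p takes 21.0% in AGS negative and between 3.54% and 4.43% in the other libraries, and miR-141-3p, at most 0.0202%, is too small to be seen.

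The balance of the 2 seed groups differed between the lines. The group of miR-200b-3p, miR-200c-3p and miR-429 held between 94.7% and 98.5% of the family's counts in every library, and the group of miR-200a-3p and miR-141-3p the rest. From the negative to the positive probe in AGS, the odds of the first group against the second changed by a factor of 0.593 (0.505 to 0.701). In HGC27 the factor was 0.888 (0.469 to 1.73), an interval that includes no change. Between the lines, the odds of the first group in AGS were 0.464 of those in HGC27 under the negative probe (0.309 to 0.672) and 0.310 under the positive probe (0.176 to 0.515), so that miR-200a-3p and miR-141-3p held more of the family in AGS, up to 5.34%, than in HGC27, at 1.53% and 1.72%. These group odds, in which miR-200c-3p weighs most, did not hold for each pair. Under the negative probe the odds of miR-200b-3p against miR-200a-3p were 2.83-fold higher in AGS than in HGC27 (1.76 to 4.45). Those of miR-429 against miR-200a-3p were 3.19-fold higher (1.30 to 9.42). Under the positive probe the factors for these pairs were 0.336 (0.172 to 0.636) and 1.46 (0.646 to 3.37).

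In AGS single members differed from each other by more than the seed groups did, also within a seed group. The odds of miR-200b-3p against miR-200c-3p, of the same seed, fell 5.43-fold with the positive probe (4.58 to 6.49), and those of miR-200b-3p against miR-429, of the same seed and cluster, fell 13.3-fold (10.6 to 16.8). Against miR-200a-3p, of the same cluster but the other seed, the odds of miR-200b-3p fell 7.88-fold (6.23 to 9.96). The odds of miR-429 against miR-200a-3p, which share the cluster but not the seed, rose 1.69-fold (1.35 to 2.12). In HGC27 the odds of miR-200b-3p against miR-200c-3p changed by a factor of 1.23 (0.807 to 1.85), which includes no change.

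The clusters were divided more sharply by line than by probe. The odds of the chromosome 1 cluster against the chromosome 12 cluster were 6.30-fold higher in AGS than in HGC27 under the negative probe (5.15 to 7.78) and 2.38-fold higher under the positive probe (1.83 to 3.12). With the positive probe in AGS the chromosome 12 cluster gained 1.92-fold (1.74 to 2.12) on the chromosome 1 cluster, and in HGC27 the same odds changed by a factor of 0.724 (0.524 to 1.00).

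The 5p arms of miR-200a and miR-200b did not follow the 3p arms between the probes in AGS. miR-200a-5p and miR-200b-5p, which share the seed AUCUUAC with each other, had 548 and 252 counts with the negative probe in AGS and 479 and 122 with the positive probe. These are 1.47-fold higher (1.30 to 1.66) for miR-200a-5p and a fold of 0.813 (0.650 to 1.01) for miR-200b-5p, neither past the ratio of 2.
miR-200a-5p: cAUCUUACcggacagugcugga
miR-200b-5p: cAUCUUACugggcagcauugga
The odds of the 3p against the 5p arm therefore fell 9.79-fold for miR-200a (7.99 to 12.02) and 42.7-fold for miR-200b (32.2 to 56.5) between the probes in AGS. In AGS positive miR-200a-5p outnumbered miR-200a-3p, at 479 against 171 counts, whereas in AGS negative it was the lesser arm.

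In HGC27 miR-200a-5p had 55 and 64 counts, above the 29 and 17 of miR-200a-3p, and the odds of its 3p against its 5p arm changed by a factor of 0.504 (0.234 to 1.07). miR-200b-5p had 2 counts in each HGC27 library. Both 5p arms were higher in AGS than in HGC27, as the 3p arms were, with edgeR log2 fold changes of 8.27 ± 1.53 for miR-200b-5p (adjusted p = 8.19e-06) and 5.02 ± 1.29 for miR-200a-5p (adjusted p = 0.00103). For the probe, edgeR gave 0.01 ± 0.97 for miR-200a-5p (adjusted p = 0.995) and −0.83 ± 1.28 for miR-200b-5p (adjusted p = 0.747). miR-141-5p, with 3 and 5 counts in AGS only, was about as scarce as miR-141-3p, and miR-200c-5p and miR-203a-5p were not listed.

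miR-203b-3p, cut from the strand opposite MIR203A, had 116 counts in AGS negative and 2 in each of the other libraries. In AGS its level with the positive probe was 0.0290 of that with the negative probe (interval 0.00347 to 0.107). Thus all 3 entries of the MIR203A and MIR203B locus were among the 9 lowest ratios of the 459 in AGS. The 2 forms of miR-203a-3p moved unequally there, the odds of the full-length form against the shorter one rising 2.04-fold with the positive probe (1.74 to 2.38), whereas in HGC27 they changed by a factor of 0.878 (0.571 to 1.33).

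Other miRNAs of epithelial and mesenchymal cells were set beside the members. Of 8 further epithelial miRNAs, among them miR-192-5p, miR-194-5p and the miR-183 cluster, 6 were listed, and miR-205-5p and miR-215-5p were not. miR-375-3p had 0 and 7 counts in AGS negative and positive, and 4 and 12 in HGC27 negative and positive. In TPA none of the 6 was called higher in AGS under either probe. Under each probe 4 were lower, beside 86.0% and 75.3% of all miRNAs. The 6 together had 793 and 826 TPA in the AGS libraries and 5768 and 3730 in the HGC27 libraries. Of the latter, miR-183-5p, miR-182-5p and miR-96-5p gave 5625 and 3602. Under the negative probe miR-192-5p had 116 TPA in AGS and 120 in HGC27, and miR-194-5p 35 and 22. With TMM factors the latter pair was higher in AGS under the negative probe, 10.6-fold and 16.6-fold. Of the 6 listed, TMM factors gave 2 higher and 1 lower under the negative probe, and 1 higher and 1 lower under the positive probe. The calls in this list thus depended on the scaling, and under neither scaling was the list as a whole higher in AGS. In TPA all 9 mesenchymal miRNAs, such as miR-199a-3p and miR-143-3p, were lower in AGS under both probes, with median log2 ratios of −7.02 and −5.61 beside −1.58 and −1.01 for all miRNAs listed. With TMM factors 9 and 8 of them were lower. Their summed level was 178 and 375 TPA in AGS and 28021 and 14968 in HGC27. Of 5 blood cell miRNAs only miR-486-5p was listed, with 2 to 28 counts.

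For each member the known miRNAs with the most similar profile were sought, by the Euclidean distance between log2 profiles over the 4 libraries, each centred on its mean, among 360 miRNAs with at least 10 counts in all. miR-31-5p, with 430, 24, 3 and 0 counts in AGS negative, AGS positive, HGC27 negative and HGC27 positive, was the nearest non-member to miR-200a-3p (distance 0.481), miR-200b-3p (1.85) and miR-203a-3p (2.05), and the third nearest to miR-429 (1.73). miR-200b-5p was nearest to miR-429 (1.43), and miR-4802-3p, listed with 35 counts in AGS negative alone, to miR-200c-3p (1.15). Among the members themselves miR-200a-3p and miR-200c-3p were the closest listed pair (1.52), ahead of miR-429 with miR-200a-3p (1.53) and miR-200b-3p with miR-203a-3p (1.96). The profile of miR-141-3p rests on 12 counts in 1 library.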

How the data were processed

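Small RNA of 4 pull-down libraries was sequenced on an Illumina instrument. The authors counted the tags mapped to each mature miRNA and normalised them to tags per 1000000 aligned tags (TPA). The submitters' processing notes name cutadapt 1.9.3, Novoalign 3.02.12 and the hg38 genome. The deposited count table holds raw tag counts, and the deposited normalised table holds TPA rounded to whole numbers, treated here as a score. The tables' counts were 35.7% to 50.0% of the totals by which the authors divided. Of 901 rows, the first of each repeated entry was kept and the others were dropped, which left 843.

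Within a line or a probe there was 1 library per group, so no test was made. Ratios are (TPA + 1), called at 2 or 0.5. Folds, shares and odds come from the counts with exact 95% intervals, and the floor for a count of 0 was 3 counts. A fit over all 4 libraries used edgeR 4.0.16 (R 4.3.3, TMM factors, filterByExpr, quasi-likelihood test, line and probe as additive terms, Benjamini-Hochberg adjustment over all miRNAs tested, threshold 0.05), after a test on simulated data. Its common biological coefficient of variation was 0.612. The simulated libraries shared the same mean makeup apart from entries changed by line. They lacked the leading miRNAs' differences found here, so that test does not vouch for the fit on these libraries. DESeq2 1.42.0 served as an alternative. The members, the lists of other miRNAs and the tests were chosen with earlier results of these data known. Named beside the 6 members were the other arms and miR-203b, entries sharing a run of 16 bases with a member or its seed, the epithelial, mesenchymal and blood lists, and the 3 nearest profiles per member.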

Additional observations from a re-analysis of the deposited data

Results flagged for a closer look

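The log2 ratio of the probes had opposite signs for miR-429 in the cell lines. Its log2 ratio of the positive over the negative probe was −1.94 in AGS, on 191 and 1264 counts, and 1.00 in HGC27, on 13 and 6 counts, a difference of −2.94. The difference was not tested, as each value comes from 1 library per probe, and the HGC27 interval includes no change.

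The log2 ratio of AGS over HGC27 of miR-203b-3p had opposite signs under the probes in rounded TPA. It was 3.09 under the negative probe, on 116 and 2 counts, and −1 under the positive probe, a difference of 4.09. Under the positive probe each line had 2 counts, which were rounded to 0 and 1 TPA, and the fold from the counts was 0.647 (exact interval 0.0469 to 8.92), so that no direction is shown there. The difference was not tested.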

How the results depend on the processing

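The direction of every member's log2 ratio was kept in all 4 comparisons under the other pseudocounts and scalings. For the probe in AGS and for the lines with the negative probe, all 6 members stayed past the ratio of 2 under each scaling. Under a pseudocount of 10 the number was 5 for each, and a threshold of 4 left 4 and 5. For the lines with the positive probe 4 of 5 members were past the ratio in TPA, and 5 with each other scaling. A pseudocount of 10 or a threshold of 4 left 3 there. In HGC27 the number of members past the ratio fell from 2 to 1 with a pseudocount of 10, with TMM and with a threshold of 4. For the line, members called numbered 0 with no filter, and 3 with at least 10 counts in every library or with bias-adjusted deviances, an alternative chosen after seeing the data. All miRNAs called for the line numbered 81, and 169 with library totals, 0 with no filter (95 at an unadjusted p under 0.05) and 15 with at least 10 counts in every library. For the probe, members called rose from 0 to 1 with DESeq2 size factors or known miRNAs only and to 2 with DESeq2's Wald test. All miRNAs called for the probe numbered 19, and 32 with DESeq2 size factors, 49 with the Wald test, 10 without the miRNAs over 30% of a library, and 0 with library totals, no filter, at least 10 counts, no covariate or bias-adjusted deviances. The cause of these shifts was not tested. Adding end variants to the seed groups added no entry, since the family has none. Joining the shorter entry to miR-203a-3p, also chosen after seeing the data, kept its direction in all 4 comparisons, but 3 of the 4 log2 ratios moved outside their counting intervals. No paired analysis was possible because the labels give no replicate numbers, so the libraries were paired by cell line alone, the covariate of the probe test. Low counts limit miR-141-3p, and miR-429 and miR-200a-3p in HGC27.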
